A study of Mus musculus with 4 samples.

Results

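The genes described here are those whose values were clearly higher in both mouse embryonic stem cell libraries labelled Myh9 KO than in both wild-type (WT) libraries, outside chromosomes 6 and 8. A gene was a member where its lower Myh9 KO value was at least 6 and at least 1.7 times its higher WT value. Genes of chromosomes 6, 8, X, Y and MT were left out, as were 10 single genes. Also left out were names that start with Gm and a number or end in Rik. The same held for solute carrier, zinc finger and glutathione transferase genes by name. This chose 92 of the 50600 genes in the table. The members were thus chosen by their values in this same comparison, so their higher values, fold changes and SE are a description that no test supports.

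The study concerns the changed shape of stem cell colonies that lack Myh9, and compared RNA-seq profiles of 2 Myh9 KO and 2 WT libraries. All 4 libraries came from the line OG2ES, labelled as derived from the inner cell mass, kept in mES medium with 2i and given no further treatment. The Myh9 KO cells form a single group and their clonal origin is not given in the sources used here, so a difference particular to that line and an effect of Myh9 loss cannot be told apart. The deposited values are whole numbers that sum to 992245 and 992317 in Myh9 KO 1 and 2 and to 992128 and 992098 in WT 1 and 2. They look like per-million values without their decimals, so the depth behind them is unknown, and levels of different genes are not compared because scaling by gene length is not stated. Fewer cells with a transcript and less transcript in each cell cannot be told apart in such bulk libraries.

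The targeted gene Myh9, which encodes a non-muscle myosin heavy chain, had a value of 9 in each Myh9 KO library, against 83 and 100 in the WT libraries (limma adjusted p = 0.00675, with a log2 fold change of -3.20 and SE 0.12). The transcript was lower in the libraries that carry the KO label, without being at 0. Between 11653 and 11830 genes were above 0 in the Myh9 KO libraries and between 11918 and 11947 in the WT libraries. Pearson's r across the 11231 tested genes was 0.988 between the Myh9 KO libraries, 0.991 between the WT libraries and 0.964 to 0.968 between groups. Of 16 markers of mouse embryonic stem cells all 16 were detected, 2 fell (Sox2 and Dppa5a), and the list's median log2 fold change was 0.01. The list sums were lower in Myh9 KO, at 9602 and 9523, against 10834 and 11074 in WT.

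Non-muscle myosin II filaments pull on actin at the cell cortex and so set the tension and shape of a cell and of its contacts. Mouse embryonic stem cells kept in 2i, a pair of kinase inhibitors, hold the naive state, in which most genes of specialised cell types are silent or low. The members are known from many such settings. They include enzymes of liver and skin, regulators of small GTPases in blood cells, and parts of the hedgehog pathway, a signalling route that runs through the primary cilium.

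To show the sequence at the start of members ranked highest, their promoters are printed. The order is that of the lower Myh9 KO value plus 1 over the higher WT value plus 1, and the genes shown are the first 4 with an entry in the RefSeq promoter table of GRCm38.p6. Each line gives the 250 bases before the start site, 5′ to 3′ on the gene's strand, and capitals mark any match to 9 short motifs. They are Hal (chr10:93488518-93488767, plus strand), Evc (chr5:37336882-37337131, minus strand), Klk10 (chr7:43780804-43781053, plus strand) and Myo1g (chr11:6520959-6521208, minus strand).

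Hal: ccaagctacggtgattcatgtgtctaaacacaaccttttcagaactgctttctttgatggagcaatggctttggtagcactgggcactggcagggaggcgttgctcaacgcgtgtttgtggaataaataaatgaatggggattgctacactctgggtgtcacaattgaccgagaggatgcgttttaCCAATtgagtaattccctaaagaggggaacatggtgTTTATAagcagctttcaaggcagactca

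Evc: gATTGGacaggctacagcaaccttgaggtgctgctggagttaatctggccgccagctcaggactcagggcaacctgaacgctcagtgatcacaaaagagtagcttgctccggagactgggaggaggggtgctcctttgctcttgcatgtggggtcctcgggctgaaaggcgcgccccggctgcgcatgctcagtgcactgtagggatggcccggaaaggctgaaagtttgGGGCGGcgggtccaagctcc

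Klk10: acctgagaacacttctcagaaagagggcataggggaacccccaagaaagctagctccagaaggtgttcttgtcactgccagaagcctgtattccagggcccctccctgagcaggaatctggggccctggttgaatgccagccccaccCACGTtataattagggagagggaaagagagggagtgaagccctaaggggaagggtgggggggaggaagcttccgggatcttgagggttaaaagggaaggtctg

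Myo1g: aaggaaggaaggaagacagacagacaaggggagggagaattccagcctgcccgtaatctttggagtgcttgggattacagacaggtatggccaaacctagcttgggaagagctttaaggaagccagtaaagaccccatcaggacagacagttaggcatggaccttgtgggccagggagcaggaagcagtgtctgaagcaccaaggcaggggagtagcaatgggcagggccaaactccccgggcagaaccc

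In the Hal promoter the capitals are a TATA box (TATAAA, read on the opposite strand) that begins 28 bases before the start site, and a CCAAT box 64 bases before it. The Evc promoter held a CCAAT box 249 bases and a GC box (GGGCGG) 20 bases before the start site. In Klk10 the core of the hypoxia element (ACGTG, which also lies inside the E-box CACGTG) was found on the opposite strand, 103 bases before the start site. None of the 9 motifs was found in the Myo1g window. Of all 92 members 69 had an entry, and those without one include Atp1b2 and Pou2f3. The GC box was found on either strand in 43 of the 69 members' windows (62.3%), against 62.0% of the windows of 8494 tested genes and 40.1% of all 20063 windows of that length. The TATA box was found in 4 (5.80%), against 5.71% of tested and 12.2% of all windows. The CCAAT box was found in 26 (37.7%), against 37.1% and 35.3%, and the E-box in 7 (10.1%), against 8.66% and 6.45%. The hypoxia core was found in 13 (18.8%), against 22.4% and 17.4%. The core of the metal response element (TGCACAC) was found in 5 windows (7.25%), those of Tmc4, Rtn2, Syt3, Arhgap45 and Fam171a1, against 3.10% and 3.19%. The octamer of POU factors, the AP-1 site (TGACTCA) and a box of the serum response factor had 0 matches among the 69, against 1.26%, 2.61% and 0.0471% of tested and 1.54%, 4.07% and 0.0449% of all windows. Promoters rich in CpG (over 50% GC and an observed to expected CpG ratio over 0.6) made up 50.7% of the members' windows (35 of 69), against 66.2% of tested and 38.8% of all windows. The members' windows thus lay between those of tested genes and those of all genes in CpG richness.

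Among all genes of the eligible chromosomes and names with both Myh9 KO values at 6 or more, the members are 92 of 6096, or 1.51%. Across all chromosomes and names 172 genes met the same values, 2.24% of 7683 tested genes. Of these, 46 lay on chromosome 6, 16 on chromosome 8 and 4 on chromosome X, and 14 were left out by name. limma called 805 of 11231 tested genes higher (7.17%) and 894 lower (7.96%). Of all 92 members, each of which passed the filter on low values, it called 72 higher and 0 lower, a count that the rule itself favours and from which nothing is read. In counts over gene lists the members are left out, and no other gene of the eligible chromosomes and names can meet the rule's values. Calls in the text below are those made both by limma on the whole numbers and by a repeat fit with random decimals. Together these called 5.15% of all tested genes higher and 5.79% lower. Of 9574 tested genes of the eligible chromosomes that are no members, they called 2.57% higher and 6.13% lower. Without the genes of chromosomes 6 and 8, limma on the whole numbers called 487 genes higher, against 805 with them. Higher calls were thus more frequent on chromosomes 6 and 8, where some list genes named below lie.

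**Figure D1:**
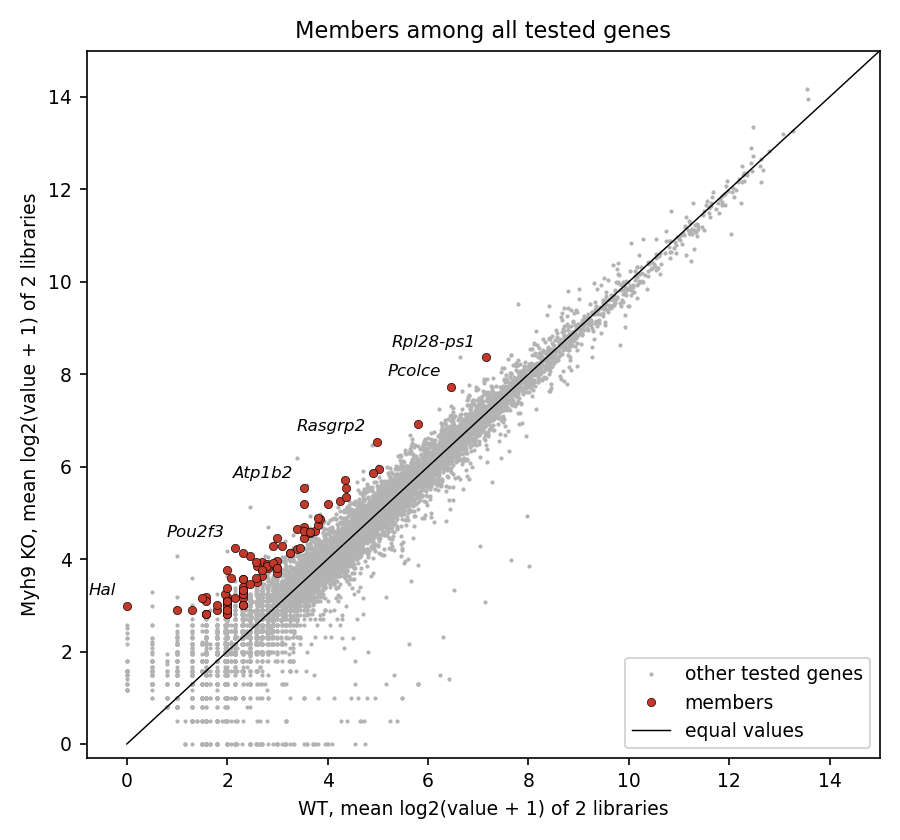
Each point is a tested gene, with its mean log2(value + 1) over the 2 Myh9 KO libraries on the vertical axis and over the 2 WT libraries on the horizontal axis. The 92 members (red) lie above the line of equal values because the rule chose them so, mostly at low values.

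Most members had low values. Both WT values were 10 or less in 70 members, and all 4 values were 10 or less in 36. The lower Myh9 KO value had a median of 12 over the 92 members, was 6 or 7 in 29 of them, was at least 20 in 22 and at least 100 in 3. The mean Myh9 KO value ranged from 6 to 331. Over the 91 members with WT values above 0, the mean Myh9 KO value was 1.71 to 6.50 times the mean WT value, with a median of 2.27. The ratio of the lower Myh9 KO to the higher WT value was at least 2 in 60 members, at least 3 in 13 and at least 4 in 7, Hal included.

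Replicates lay close together. The Myh9 KO libraries had equal values in 22 members and the WT libraries in 46, and 16 members had equal replicates in both groups. Myh9 KO 1 was above Myh9 KO 2 in 33 members and below it in 37. WT 1 was above WT 2 in 14 members and below it in 32, a less even split. The median absolute log2 difference between replicates was 0.11 in Myh9 KO and 0.02 in WT. The widest pairs were Pqlc1 in Myh9 KO (7 and 11) and, equally wide in WT, Smim22 (5 and 2) and Zglp1 (1 and 3). Equal whole numbers leave no spread, so the standard errors (SE) given for such members are too small.

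**Figure D2:**
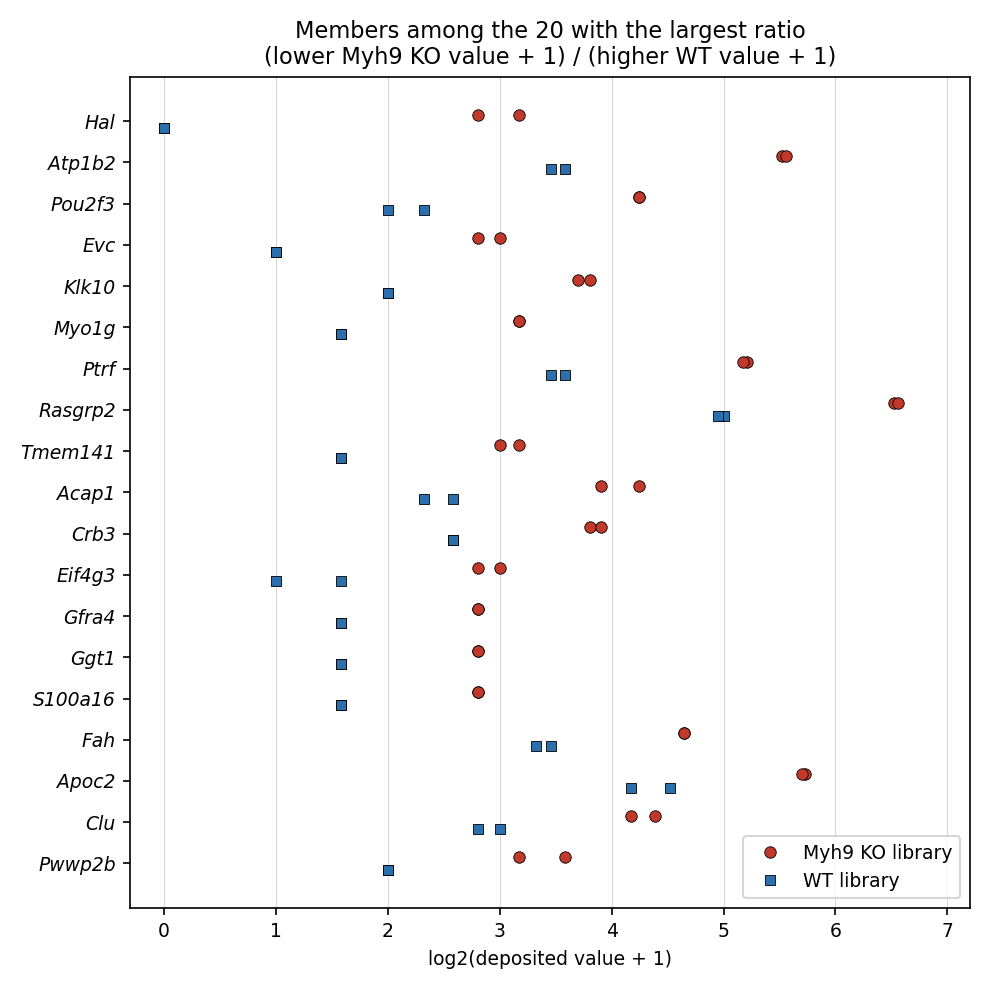
Values of members among the 20 ranked highest, as log2(value + 1), with 2 Myh9 KO libraries (circles) drawn above 2 WT libraries (squares) for each gene. The groups are separate in every row, which the rule requires, and equal replicates overlie each other.

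Hal codes for histidine ammonia-lyase, the enzyme that opens the breakdown of histidine in liver and skin (ENSMUSG00000020017, mm10 chromosome 10, 93488768 to 93519304). It had values of 8 and 6 in the Myh9 KO libraries and was listed at 0 in both WT libraries. It is the member with no WT signal, so no fold is given. The enzymes that act after it, Uroc1, Amdhd1 and Ftcd, were listed at 0 in all 4 libraries. Among 8 other tested genes of histidine breakdown and one-carbon supply, 1 rose and 0 fell (median log2 fold change -0.02). It was the folate enzyme gene Mthfd2, on chromosome 6, at 110 and 105 in Myh9 KO, against 80 and 81 in WT (log2 fold change 0.41, limma adjusted p = 0.0238).

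The sodium pump exchanges sodium for potassium across the cell membrane. Atp1b2 codes for the beta-2 subunit, which in brain also acts in adhesion of glia (chromosome 11, 69599736 to 69605942). It had values of 45 and 46 in Myh9 KO, against 10 and 11 in WT (log2 fold change 2.02, SE 0.06). Other beta subunits did not share this. Atp1b3 fell to 56 and 57 in Myh9 KO, against 68 and 72 in WT (log2 fold change -0.30, limma adjusted p = 0.0491). Atp1b1 had values of 56 and 49 in Myh9 KO, against 75 and 78 in WT, and was called only with random decimals (limma adjusted p = 0.0686, and 0.0025 with them). Fxyd6, a regulator of the pump, fell to 29 in each Myh9 KO library, against 62 and 69 in WT (log2 fold change -1.15).

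Other members that move ions are Atp2a3, a calcium pump of the endoplasmic reticulum, and Tmc4 of the transmembrane channel-like family. Atp2a3 had values of 13 and 16 in Myh9 KO, against 5 and 6 in WT, while its widely expressed relative Atp2a2 had 81 and 78 in Myh9 KO, against 86 and 93 in WT (limma adjusted p = 0.176). Tmc4 had a value of 8 in each Myh9 KO library, against 3 in each WT library.

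Evc codes for a protein at the base of the primary cilium that binds the hedgehog transducer Smoothened (chromosome 5, 37289098 to 37336894). Its values were 7 and 6 in Myh9 KO, against 1 in each WT library (log2 fold change 1.90, SE 0.09). Kif7, the ciliary kinesin that organises the GLI factors of this pathway, had values of 8 and 9 in Myh9 KO, against 4 in each WT library. Of 10 other tested genes of hedgehog signalling and the EVC complex 1 rose and 0 fell, with a median log2 fold change of 0, as over all tested genes. It was Smo, which codes for Smoothened. Smo meets the values of the rule and was left out with chromosome 6, as 1 of 46 such genes there. It was at 28 and 33 in Myh9 KO, against 13 and 14 in WT (limma adjusted p = 0.0336, with a log2 fold change of 1.12 and SE 0.11). Evc2, the partner of Evc, had values of 6 and 8 in Myh9 KO, against 3 and 4 in WT, and was called only with random decimals (adjusted p = 0.129 by limma, and 0.0285 with them). Among target genes of the pathway, Ptch1 was not called and Gli1 was too low to be tested. Ptch1 had values of 6 and 6 in Myh9 KO, against 6 and 7 in WT, and Gli1 had 1 and 1, against 0 and 1. The gene body of Crmp1 overlaps Evc, and Crmp1 had values of 6 and 8 in Myh9 KO, against 6 and 7 in WT.

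Pou2f3 is a POU factor that specifies tuft cells, chemosensory cells of epithelia (chromosome 9, 43123939 to 43210369). It had a value of 18 in each Myh9 KO library, against 3 and 4 in WT (log2 fold change 2.09, SE 0.14). Other genes of tuft cells did not accompany it: 9 of the 12 listed were at 0 in all 4 libraries, among them Trpm5, Avil and Sox9, and Ascl2 had 6 and 6 in Myh9 KO, against 3 and 5 in WT. Of 6 other tested genes of POU factors and their coactivators 0 were called by both fits (median log2 fold change -0.44). Limma on the whole numbers called 1 lower, Pou2f1, at 1 and 1 in Myh9 KO, against 2 and 2 in WT. Apart from Pou5f1 these genes had no value above 3, so the median rests on small steps of whole numbers. Pou5f1, the POU factor that holds pluripotency, had values of 3104 and 3189 in Myh9 KO, against 3045 and 3122 in WT (adjusted p = 0.489 by limma).

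Of the 13 members in transcription and chromatin, Pwwp2b, a chromatin reader, had values of 8 and 11 in Myh9 KO, against 3 and 3 in WT. Pclaf, a partner of the replication clamp PCNA, had 39 and 32, against 15 and 15. Pcna itself had values of 362 and 329 in Myh9 KO, against 360 and 375 in WT (limma adjusted p = 0.448). Some members are known from germ cells. Stag3, the cohesin subunit of meiosis, had 7 in each Myh9 KO library, against 3 in each WT library, and its meiotic partner Rec8 had 17 and 17, against 15 and 12 (limma adjusted p = 0.24). Tle6, a Groucho relative of the maternal complex in mouse oocytes, had 27 and 20 in Myh9 KO, against 10 and 11 in WT. Zglp1, a GATA-like factor of the female germline, had 7 and 9 in Myh9 KO, against 1 and 3 in WT. Its value is uncertain, since 92.1% of its 50-base words occur in other genes. The homeobox gene Nkx1-2 had 12 and 13 in Myh9 KO, against 5 and 6 in WT, and Hes6, a helix-loop-helix factor of neural precursors, had 19 and 17, against 10 and 10. Setd4 (23 and 22 in Myh9 KO, against 11 and 12 in WT) and Prmt2 (10 and 8, against 4 and 4) code for methyltransferases. Polr3gl, a subunit of RNA polymerase III, had 13 and 12 in Myh9 KO, against 5 and 6 in WT. Jade2, a part of histone acetyltransferase complexes, and Tep1, a telomerase-associated protein, each had 7 in both Myh9 KO libraries, against 4 in both WT libraries.

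A group of 8 members holds regulators of small GTPases, switches that steer actin and adhesion, with a GTPase itself (Rac3) and Gpsm3. Rasgrp2, which activates the adhesion switch Rap1 and is best known from platelets, had values of 91 and 93 in Myh9 KO, against 31 and 30 in WT (log2 fold change 1.56, SE 0.03). Acap1, which turns off the membrane traffic switch Arf6, had 18 and 14 in Myh9 KO, against 5 and 4 in WT (log2 fold change 1.62, SE 0.19). Rac3, a Rac GTPase of nerve cells, had 23 and 24 in Myh9 KO, against 13 and 12 in WT. The broadly expressed Rac1 had 155 and 148 in Myh9 KO, against 145 and 140 in WT (limma adjusted p = 0.25). Other members were the GTPase inactivators Arhgap8 (16 and 17 in Myh9 KO, against 8 and 9 in WT) and Arhgap45 (8 and 7, against 3 and 3) and the GTPase activators Arhgef25 (19 and 23, against 11 and 10) and Farp1 (6 and 7, against 3 and 3). Gpsm3, a regulator of heterotrimeric G proteins, had 18 and 19 in Myh9 KO, against 8 and 7 in WT. Of the exon bases of Gpsm3 16.9% overlap Pbx2 on the same strand, at 53 and 57 in Myh9 KO, against 46 and 48 in WT, and 13.1% of its 50-base words occur in other genes, so its value is uncertain.

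Among 10 members of motors, actin and microtubules was another myosin. Myo1g codes for a single-headed myosin of blood cells that links actin to the membrane, and it had 8 in each Myh9 KO library, against 2 in each WT library (log2 fold change 1.58). Other class I myosins did not share this: Myo1c had 38 and 40 in Myh9 KO, against 51 and 56 in WT (limma adjusted p = 0.0615), and Myo1e had 13 and 13, against 14 and 13. The LIM domain gene Crip1 had values of 126 and 114 in Myh9 KO, against 52 and 58 in WT, and Palm, which shapes the membrane of neurites, had 36 and 39, against 18 and 18. Tnnt1, troponin T of slow muscle, had 16 and 13 in Myh9 KO, against 4 and 6 in WT. Bin2, which bends membranes, had 14 and 12 in Myh9 KO, against 7 and 7 in WT. The actin bundler Aif1l (7 and 7 in Myh9 KO, against 3 and 3 in WT), the kinesin light chain Klc3 (6 and 6, against 3 and 3), Dpysl5 of growth cones (7 and 6, against 3 and 3) and the microtubule protein Nckap5l (7 and 9, against 4 and 4) lay near the lower bound. Of 20 tested genes of actin binding and the cortex, none of them members, 2 rose and 0 fell (median log2 fold change -0.12): Capg and Tagln2. Capg meets the values of the rule and was left out with chromosome 6.

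Members of membrane shape, polarity and junctions were Ptrf, Crb3 and Arvcf. Ptrf, also named Cavin1, builds the coat of caveolae, membrane pits that flatten under tension (chromosome 11, 100956733 to 100970887). It had 36 and 35 in Myh9 KO, against 10 and 11 in WT (log2 fold change 1.67, SE 0.06). The caveolin genes Cav1 and Cav2, the other main parts of these pits, and the cavin gene Sdpr were listed at 0 in all 4 libraries. Crb3, of the Crumbs complex that marks the apical side of epithelia, had 13 and 14 in Myh9 KO, against 5 and 5 in WT. Arvcf, a catenin that binds cadherins, had 59 and 63 in Myh9 KO, against 30 and 33 in WT.

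Secreted proteins, matrix factors and proteases gave 11 members. Klk10 and Klk8 belong to the kallikreins, secreted serine proteases encoded side by side on chromosome 7. Klk10 had values of 12 and 13 in Myh9 KO, against 3 and 3 in WT (log2 fold change 1.75, SE 0.05). Klk8 had 11 and 11, against 4 and 6. Their neighbour Klk11 had 3 and 2 in Myh9 KO, against 1 and 1 in WT (limma adjusted p = 0.11), and Klk5, Klk6 and Klk9 were listed at 0 throughout. Pcolce, which speeds the trimming of procollagen, had 203 and 220 in Myh9 KO, against 82 and 92 in WT (log2 fold change 1.27, SE 0.09), and the collagen chaperone Fkbp10 had 12 and 11, against 5 and 6. Lamb1, the laminin beta-1 chain, had 9 and 7 in Myh9 KO, against 3 and 4 in WT, whereas its partner chain Lamc1 fell to 102 and 106, against 165 and 180 (log2 fold change -0.72, limma adjusted p = 0.0266). Clu, a secreted chaperone, had 17 and 20 in Myh9 KO, against 7 and 6 in WT. Ece1, which activates endothelin, had 19 and 23 in Myh9 KO, against 6 and 8 in WT. The secreted phospholipase Pla2g10 had 10 and 12 in Myh9 KO, against 4 and 4 in WT, and the guidance molecule Sema6c had 25 and 26, against 12 and 14. Apoc2, cofactor of lipoprotein lipase, had 52 and 51 in Myh9 KO, against 22 and 17 in WT. Of the 50-base words of Apoc2, 78.3% occur in other genes, chiefly in an overlapping read-through gene at 5 and 1 in Myh9 KO, against 1 and 2 in WT.

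Besides Hal, 10 members are enzymes or carriers of small molecules. Fah, which completes tyrosine breakdown, had 24 in each Myh9 KO library, against 9 and 10 in WT (log2 fold change 1.25, SE 0.06). Ggt1, which splits glutathione outside the cell, had 6 in each Myh9 KO library, against 2 in each WT library. Purine enzymes were Ada (16 and 17 in Myh9 KO, against 8 and 9 in WT), which deaminates adenosine, and Gmpr (12 and 14, against 6 and 6), which reduces GMP. Pygb, the brain form of glycogen phosphorylase, had 58 and 56 in Myh9 KO, against 28 and 30 in WT. Npl, which splits sialic acid, had 29 and 27 in Myh9 KO, against 14 and 13 in WT, and the NAD-making Nmnat2 next to it on chromosome 1 had 24 and 22, against 12 and 11. Crabp1, which binds retinoic acid, had 40 and 52 in Myh9 KO, against 20 and 19 in WT, while Crabp2 had 3 and 2, against 1 and 5, and the retinoic acid targets Rarb and Cyp26a1 were listed at 0 throughout. Mogat2, of triglyceride synthesis, had 9 and 9 in Myh9 KO, against 4 and 4 in WT, and the cytochrome P450 gene Cyp2s1 had 12 and 12, against 7 and 7.

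Receptors and signalling adaptors gave 9 further members beside Evc. Gfra4, the receptor of the neurotrophic factor persephin, had 6 and 6 in Myh9 KO, against 2 and 2 in WT, and Amhr2, the receptor of anti-Müllerian hormone, had 12 and 9, against 5 and 5. Proteins that bind or sort growth factor receptors were Grb7 (23 and 27 in Myh9 KO, against 10 and 11 in WT), Cblc (8 and 9, against 2 and 4), Zfyve28 (8 and 7, against 3 and 3) and Tom1l1 (6 and 7, against 3 and 2). Tmem88 and Lzts2, which dampen WNT signalling, had 9 and 11 in Myh9 KO, against 4 and 5 in WT, and 12 and 14, against 7 and 7. Ndrg2, a differentiation-linked gene, had 12 and 10 in Myh9 KO, against 4 and 4 in WT.

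Immune genes among the members were Cd74, Tmem173, Zc3h12a, Lat and Optn. Cd74, the invariant chain that escorts MHC class II proteins, had 14 and 15 in Myh9 KO, against 7 and 7 in WT. The class II chain gene H2-Eb1 went the other way, to 1 and 1 in Myh9 KO, against 27 and 26 in WT (log2 fold change -3.78, limma adjusted p = 0.000935). H2-Aa, H2-Ab1 and their activator Ciita were listed at 0 in all 4 libraries. Tmem173, the DNA-sensing adaptor STING, had 9 and 8 in Myh9 KO, against 4 and 4 in WT, and Mb21d1, the sensor upstream of it, had 1 and 0, against 0 and 0. Zc3h12a, which degrades cytokine mRNAs, had 9 and 10 in Myh9 KO, against 4 and 4 in WT. Lat, an adaptor of T cell receptors, and Optn, an autophagy receptor, had 7 in each Myh9 KO library, against 4 in each WT library.

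Genes of synapses and nerve cells were Dlgap3, a scaffold of excitatory synapses (36 and 44 in Myh9 KO, against 19 and 20 in WT), Syt3, a calcium sensor of vesicles (7 and 6, against 3 and 3) and the reticulon Rtn2 (18 and 17, against 10 and 9). Of 15 other tested neuronal and synaptic genes 0 rose and 2 fell, Nefl and Stmn3 (median log2 fold change -0.13). In translation, Eif4g3, a scaffold of the cap-binding complex, had 6 and 7 in Myh9 KO, against 1 and 2 in WT. Rpl28-ps1, annotated as a pseudogene, had 333 and 329 in Myh9 KO, against 158 and 126 in WT. All of its 50-base words (100%) occur in other genes, and the parent gene Rpl28 had 2022 and 2084 in Myh9 KO, against 2167 and 2058 in WT, so its value is uncertain.

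The remaining 12 members were put in no function group, most being little characterised. Tmem141 had 8 and 7 in Myh9 KO, against 2 and 2 in WT, S100a16, of a calcium-binding family, had 6 and 6, against 2 and 2, and Smim22 had 11 and 11, against 5 and 2. Mgarp, of mitochondrial movement, had 14 and 14 in Myh9 KO, against 6 and 7 in WT, and Tmem82 had 8 and 7, against 3 and 3. The noncoding RP23-255F14.8, which GENCODE names Gm26564, had 28 and 29 in Myh9 KO, against 12 and 14 in WT. The other 6, Ccnjl, Ccdc106, Flywch2, Fam171a1, Trp53i11 and Pqlc1, had values of 6 to 15 in Myh9 KO, against 2 to 7 in WT.

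**Figure D3:**
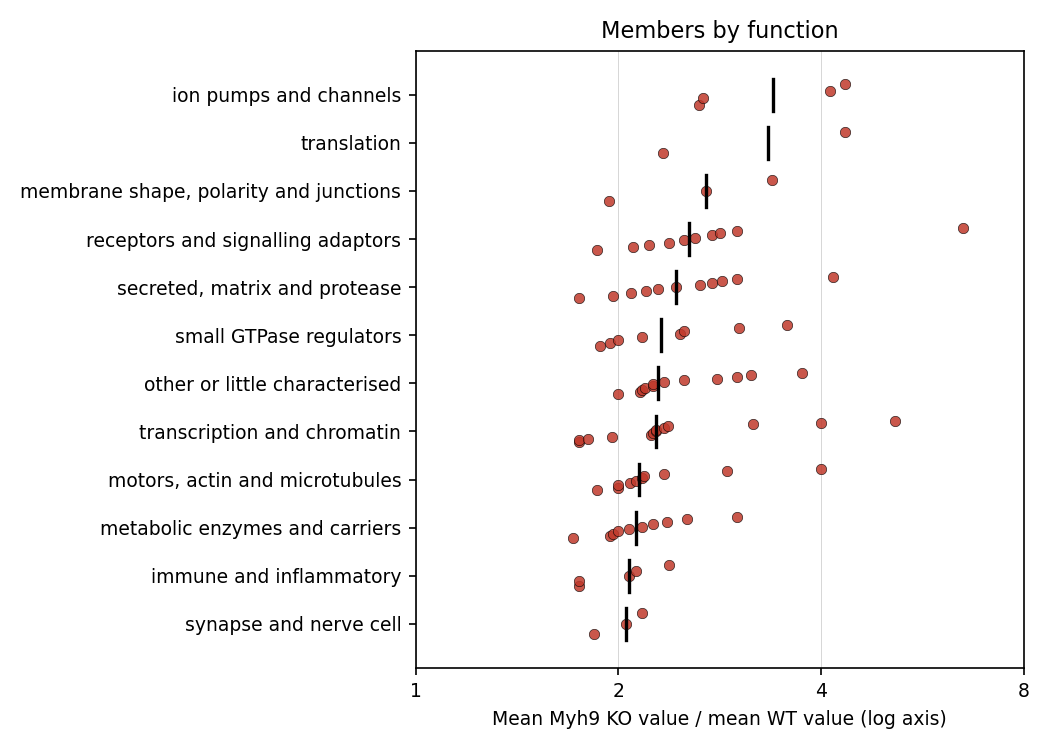
Each point is a member with WT values above 0 (91 in all, without Hal), at its mean Myh9 KO value divided by its mean WT value on a log axis, and black bars are group medians. Ion pumps and channels had the highest median (3.40) and synapse genes the lowest (2.05), in groups of 4 and 3 members.

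The members lie on 17 chromosomes. Chromosome 7 held 18 of the 92 (19.6%), against 9.22% of the 8623 tested genes of eligible chromosomes and names, or 22.6 members per 1000 tested genes, against 10.7 over all these chromosomes. Chromosome 10 followed with 16.6 and chromosome 11 with 13.9 per 1000. The tested genes of chromosome 7 had a median log2 fold change of 0, against -0.01 over all these chromosomes. Their median transcript GC content was 53.7%, against 50.9%. The reason for the share of chromosome 7 was not tested. In all, 28 members lay in 11 groups within 1 Mb of the next member, and 12 of the 18 on chromosome 7 did so. The group with most members was that of Rtn2, Klc3, Apoc2 and Cblc (chromosome 7, 19282624 to 19796809), followed by Tmc4, Tnnt1 and Ccdc106 (chromosome 7, 3665790 to 5060785), Klk10, Klk8 and Syt3 (chromosome 7, 43781035 to 44400187) and Tmem88, Atp1b2 and Acap1 (chromosome 11, 69396519 to 69895539).

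**Figure D4:**
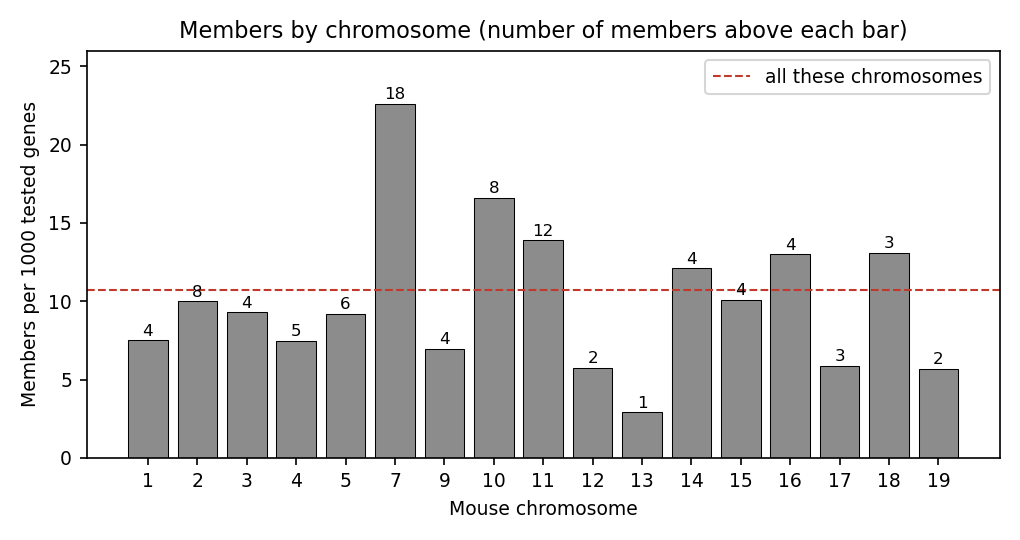
Bars give members per 1000 tested genes of eligible names on each chromosome, with the number of members above each bar and the value over all these chromosomes, 10.7, as a dashed line. Chromosome 7 has the tallest bar, at 22.6, and chromosome 13 the lowest, at 2.90.

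The nearest tested genes on either side were set beside all tested genes of the same chromosomes, members being left out of both sets. Over the 180 neighbours the median log2 fold change was 0.02, against -0.02 over 9574 tested genes of the same chromosomes. Of the neighbours 11 rose (6.11%) and 2 fell (1.11%), against 2.57% and 6.13% of the larger set, which includes the neighbours. Their median transcript GC content was 53.7%, against 50.8%. Examples are Bcam beside Cblc, at 225 and 238 in Myh9 KO, against 136 and 140 in WT (log2 fold change 0.74), and Camkk1 beside Atp2a3, at 4 and 4, against 1 and 1 (log2 fold change 1.32). Ercc2, whose exons overlap those of Klc3 on the other strand, rose to 55 and 57, against 41 and 39 (log2 fold change 0.48). Exons of 9 members overlap those of a gene listed at 10 or more in some library, and no step that marks the strand is described in the labels' protocols, so reads of such pairs cannot be told apart.

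The members were rich in GC. Their longest transcripts had a median GC content of 55.6% (quartiles 52.4% and 57.5%), against 50.8% (46.1% and 55.2%) over tested genes, and 80 of 92 (87.0%) lay above that overall median. They were also shorter, with a median length of 2578.5 bases, against 3056. With tested genes split by GC content into 5 bins of 2244 genes, 3 and 2 members lay in the lowest bins (31.0% to 49.0% GC) and 39 in the highest (56.1% to 76.3%), or 17.4 per 1000 tested genes there. All tested genes followed GC content too, with a median log2 fold change of -0.15 in the lowest and 0.11 in the highest bin. The replicates in Myh9 KO differed along the same axis, Myh9 KO 2 minus Myh9 KO 1 being -0.14 and 0.09 in those bins, and the WT replicates by 0 and 0. With the trend on GC content and length removed in each library, the median log2 fold change of the 91 members with WT values above 0 was 0.98, against 1.06 before, and it ranged from 0.56 to 2.07. The part of GC content in the members' values was not tested further.

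**Figure D5:**
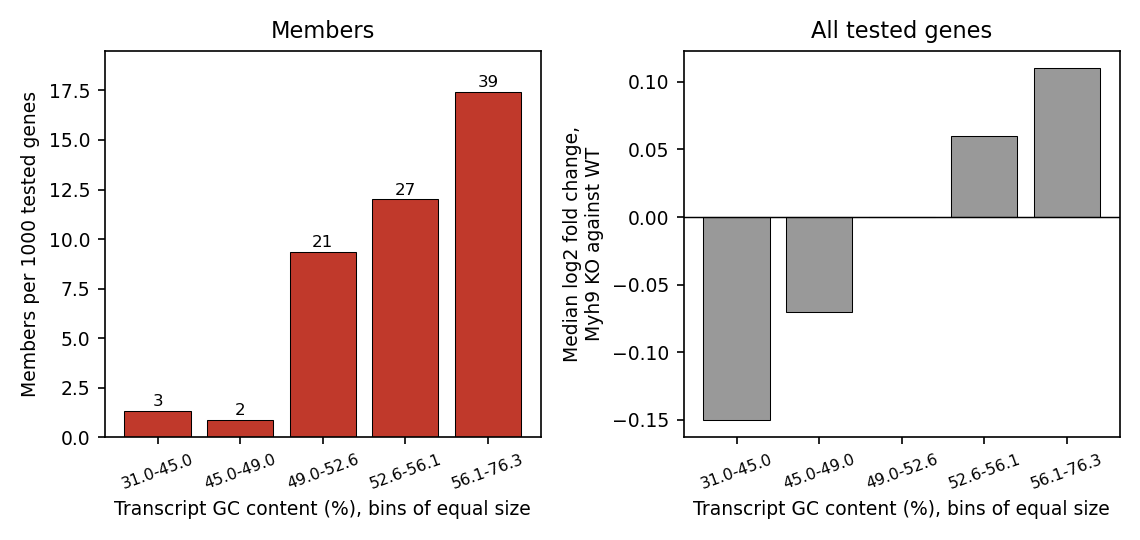
Left, members per 1000 tested genes by bin of transcript GC content (5 bins of equal size), with the number of members above each bar (3, 2, 21, 27 and 39). Right, the median log2 fold change (Myh9 KO against WT) of all tested genes in the same bins, from -0.15 to 0.11.

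Markers of other cell types were followed beside the members. Of 13 tested trophoblast markers 4 rose, Eomes, Krt18, Esx1 and Peg10, and 0 fell (median log2 fold change 0.68). Eomes, Esx1 and Peg10 meet the values of the rule and were left out by name, with chromosome X and with chromosome 6. The list summed to 269 and 286 in Myh9 KO, against 179 and 188 in WT. Of the 20 markers 7 were at 0 throughout, among them Elf5 and Hand1. Of 7 tested primitive endoderm markers 2 rose, Col4a1 and Hnf4a, and 1 fell, Sparc (median log2 fold change 0.62). Col4a1 meets the values of the rule and was left out with chromosome 8. Hnf4a was low, at 2 and 3 in Myh9 KO, against 0 and 0 in WT. The list sums were lower, at 205 and 218 in Myh9 KO, against 240 and 242 in WT, of which Sparc made up 155 and 162, against 214 and 212. Here 10 of 18 were at 0 throughout, Gata6, Sox7 and Foxa2 among them. Of 4 tested neural markers 0 were called, at a median log2 fold change of -0.25, with list sums of 113 and 111 in Myh9 KO, against 128 and 136 in WT, and Pax6, Olig2 and Dcx at 0. Of 5 tested fibroblast markers of feeder layers 1 fell, Fstl1, with sums of 378 and 422 in Myh9 KO, against 458 and 486 in WT, and Col1a1, Col1a2 and Col3a1 at 0. The part of the trophoblast markers in the members' values was not tested.

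Members at the edge of the rule differ little from genes beyond it. Just inside were Hes6 and Rtn2 at a ratio of 1.7 and Bin2 at 1.71. Just outside were the homeobox gene Cdx1 (90 and 101 in Myh9 KO, against 53 and 48 in WT, a ratio just under 1.7), Ipp (22 and 24, against 12 and 13, ratio 1.69) and the cathepsin gene Ctsc (21 and 20, against 12 and 11, ratio 1.67). A further 13 and 23 genes met the ratio with a lower Myh9 KO value of 5 and of 4. Whole numbers blur this edge: 54 members would keep a ratio of 1.7 under the least favourable decimals if these had been dropped, and 56 if they had been rounded. The 8 members with values of 4 in WT and 7 in a Myh9 KO library, at the foot of the ranking, are among those that would not.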

How the data were processed

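RNA-seq of 2 Myh9 KO and 2 WT libraries of mouse embryonic stem cells was analysed from 1 table of all genes. Per the submitters' processing notes, which give neither roles nor order, bcl2fastq, Bowtie2 2.2.5 and RSEM 1.3.0 were used and the builds mm10 and hg38 are named. Values deposited by the authors were treated as a score: whole numbers that sum to 992098 to 992317 in a library, with scaling by gene length not stated. The depth is unknown, so no counting interval is given, and small values carry a rounding error of up to 1.

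Genes with a mean of at least 1 over the 4 libraries (11231) were tested with limma 3.58.1 in R 4.3.3 (trend on mean level) on log2(value + 1), which understates changes of low genes, with Benjamini-Hochberg adjusted p under 0.05. The fit was repeated with random decimals between 0 and 1 added (median over 25 draws), and a gene was called where both fits called it. On simulated data the fit on whole numbers missed nearly all changes where few genes changed. Where many did, it made more false calls than its threshold allows, while genes called by both fits kept within it. The calls of both fits missed many changes too. They recovered 0% of 2-fold and 14% of 4-fold changes with 200 changed genes, and 50.5% and 81.6% with 2000. A gene that was not called may therefore still differ. The labels do not say that replicates were separate cultures, so p-values reflect only how these libraries vary, possibly for technical reasons. Deviations of same-numbered libraries had a correlation of 0.0407 across genes.

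Members, the 23 gene lists, function groups and the other genes set beside members were chosen with earlier results of these data known. Described in full are the 20 members ranked highest by the lower Myh9 KO value plus 1 over the higher WT value plus 1, the 3 with the highest mean values and 3 genes on either side of the ratio of 1.7. The others are named by function group, and a few genes are not reported here. From each list the called genes with the smallest p, up to 4, may be named. Transcript GC content, length and shared words of 50 bases came from GENCODE vM21, in which all 92 members were found, 84 of them at the table's coordinates. Promoters came from RefSeq (GRCm38.p6). Alternatives were the pseudocount, the filter, scaling, a GC content and length correction, a replicate block, other bounds of the rule and leaving out each library.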

Additional observations from a re-analysis of the deposited data

How the results depend on the processing

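Under random decimals 1245 genes were called higher, 1346 lower and 94 genes of the lists, against 805, 894 and 62 by limma on the whole numbers. With the replicate block, which leaves 1 residual degree of freedom, 10 genes were called higher, 44 lower, 0 members and 0 genes of the lists. The labels do not say what the numbers share. With the trend on GC content and length removed, 1472 genes were called higher and 113 of the lists. Without the genes of chromosomes 6 and 8, an alternative chosen after seeing the data, 487 were called higher. Leaving out 1 library at a time gave 599 to 1032 genes called higher, 796 to 1030 lower, 29 to 48 members (47 without Myh9 KO 2, 29 without WT 1 and 29 without WT 2, against 72) and 44 to 58 genes of the lists. The lone library is then assumed to vary like the other group.

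The rule chose 186 genes at a ratio of 1.5, 60 at a ratio of 2, 128 at a lower Myh9 KO value of 4 and 52 at one of 10. Among members, 54 and 56 keep the ratio under the least favourable dropped or rounded decimals, both chosen after seeing the data. Without 1 library it chose 126 to 153 genes, with 152 without Myh9 KO 1 and 153 without WT 2. Of 371 alternative log2 fold changes of 29 named genes, 0 were reversed and 72 moved by more than the spread between replicates. The causes of these differences were not tested. Unknown depth limits the low values most, since 36 members have no value above 10.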

Other observations

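Lists of other pathways were also counted without members, by the calls of both fits. These called 5.15% of all tested genes higher and 5.79% lower, members and left-out chromosomes included. Of the 9574 tested genes of the eligible chromosomes that are no members, they called 2.57% higher and 6.13% lower. Of 8 tested genes of keratins and desmosomes 1 rose, Krt18, at 35 and 37 in Myh9 KO, against 23 and 20 in WT. Of 13 tested homeobox genes outside the POU class 2 rose, Cdx1 and Tlx2, and 1 fell. Tlx2 meets the values of the rule and was left out with chromosome 6. Of 20 tested genes of calcium and calmodulin signalling other than the member Atp2a3, 3 rose and 2 fell. Of the 3, Camk1 and Calb2 meet the values of the rule and were left out with chromosomes 6 and 8. Of 25 tested amino acid and polyamine enzymes 3 rose and 5 fell. Of 12 tested lipid transfer genes 2 rose and 1 fell, and of 14 nuclear receptors 1 rose and 1 fell. Among 22 semaphorins, ephrins and guidance receptors 1 rose and 0 fell, as among 11 genes of complement and cytokines. Of 13 ion channels 0 rose and 1 fell. Of 13 genes of fatty acid oxidation and PPAR targets 0 were called by both fits, and limma on the whole numbers called 1 of them higher.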
